A study of Mus musculus with 43 samples.

Results

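The GIMAP genes encode GTPases of immunity-associated proteins, a family of membrane-linked GTP-binding proteins found mainly in lymphocytes. The 8 mouse genes Gimap1, Gimap3, Gimap4, Gimap5, Gimap6, Gimap7, Gimap8 and Gimap9 were chosen by name, and all 8 had a usable probe set among the 22180 genes tested. Members of the family act on mitochondria, lysosomes and autophagosomes, and in mice the loss of Gimap1 or Gimap5 costs most peripheral T cells. They are best known from the survival of unstimulated T cells. In these arrays 0 of the 8 genes had its highest group mean in naive cells, and Gimap4, Gimap7 and Gimap9 had their lowest there. Of these, only Gimap7 lay below the next group by more than the larger SD of the 2 groups. The share of all genes with such an order was not counted.

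Expression was measured on 43 arrays, 1 per sample, of AND TCR transgenic CD4+ T cells that were CD45.1+ and lacked Rag2, sorted back from recipient mice as CD4+CD90.2+CD45.1+ cells. On day 30 after transfer there were 5 arrays each of the off, none, low and intermediate (int) groups, on day 10 there were 5 each of none and low and 4 each of int and high, and 5 arrays held naive cells. All off, none, low and int recipients were iMCC mice, whose 2 transgenes make dendritic cells present a moth cytochrome c peptide while doxycycline is drunk. They had received an anti-CD40 antibody, and 100 µg/ml doxycycline until day 3. Afterwards the none group had 0, the low group 10 and the int group 100 µg/ml, while the off group had 100 µg/ml until day 10 and 0 until day 30. High cells came from cMCC mice, another strain, in which every cell with MHC class II carries the peptide all the time, without doxycycline. The labels do not say separately whether cMCC mice had the antibody. Naive cells had spent 3 days in recipients that lacked the transgenes and drank no doxycycline. They therefore differ from all primed cells in recipient and time as well as in priming, and from all but the high cells in the drug. Whether recipients of naive cells had the anti-CD40 antibody is not stated here, so they may differ in that too. Ages, and whether a sample pools animals, are not given, so the spread behind each p-value is that of these samples and could be partly technical. A second series of sorts gave the day 30 cells, and effects of day and of sort series cannot be told apart.

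Each value is the log2 signal of 1 probe set, differences are log2 fold changes ± SE, and a gene was called at a limma adjusted p under 0.05 over all genes. Array medians lay between 3.28 and 3.44, against means of 6.67 (Gimap1) to 10.41 (Gimap4) over all arrays for the GIMAP genes. The lowest single value of any member was 5.66 (Gimap1) and the highest 10.87 (Gimap4). Levels of different probe sets are not compared. Among the sort markers, the mean of Cd4 lay between 9.12 and 10.00 in every group, that of Cd3e between 10.59 and 11.44, and that of Thy1, the gene of CD90, between 10.12 and 11.20. Thy1 was lowest in day 10 high cells. Naive replicates 3 and 4 also carried transcripts of other cells, with Cd79a at 7.68 and 6.65 and Lyz2 at 8.34 and 7.39, against at most 5.00 and 3.47 in the other naive arrays. They were not the only naive arrays with such transcripts. Over naive replicates 1 to 5, S100a8 was 6.39, 5.11, 10.7, 10.18 and 7.72 and Cd79b 3.31, 3.37, 8.69, 6.66 and 5.35. Day 10 none replicate 4 and day 10 high replicate 2 were also left out in an alternative fit, a choice made with earlier results of these data known. Results whose call rests on these 4 arrays are given with and without them. In bulk samples, fewer cells of a kind and less RNA per cell cannot be told apart.

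The 8 genes lie together on mouse chromosome 6 (GRCm38.p6), from 48647186 to 48770851, a stretch of 123.7 kb that holds no other measured gene. In order they are Gimap8, Gimap9, Gimap4, Gimap6, Gimap7, Gimap1, Gimap5 and Gimap3. Gimap6 and Gimap3 are read from the minus strand and the others from the plus strand. Tmem176b and Tmem176a, just beyond Gimap3, had mean levels of 3.18 and 3.51, and AI854703 and Zfp775, before Gimap8, had 3.98 and 3.84. Of the 10 nearest measured genes, 1 was called in any of the 20 tests run. It was Lrrc61, lower in day 30 none than in naive cells (-1.10 ± 0.31, limma adjusted p = 0.031). The share of all genes called in any of these tests was not counted. Gm5111, Aoc1, Doxl1, Doxl2 and Tmem176b had mean levels of 2.49 to 3.18, below the array medians, where changes can be missed.

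Promoter windows of 300 bases (250 before to 50 after the start of transcription) are shown for Gimap7, Gimap5 and Gimap3. Gimap7 was the member that differed most between none and naive cells. Gimap5 and Gimap3 are adjacent paralogs that went opposite ways between high and none cells on day 10. The sequences are from RefSeq (GRCm38.p6), 5′ to 3′ on the strand of the gene. Capitals mark matches, on either strand, to short motifs of T cell factors: RUNX (TGTGGT), TCF/LEF (CTTTGA), KLF (CCACCC) and FOXO (GTAAACA).
Gimap7, chr6:48718371-48718670, plus strand: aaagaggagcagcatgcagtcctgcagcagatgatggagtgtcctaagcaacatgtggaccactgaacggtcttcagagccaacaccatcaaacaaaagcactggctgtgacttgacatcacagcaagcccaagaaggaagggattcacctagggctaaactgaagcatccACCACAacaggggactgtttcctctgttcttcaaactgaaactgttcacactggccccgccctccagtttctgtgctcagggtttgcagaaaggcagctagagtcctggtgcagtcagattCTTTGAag
Gimap5, chr6:48745947-48746246, plus strand: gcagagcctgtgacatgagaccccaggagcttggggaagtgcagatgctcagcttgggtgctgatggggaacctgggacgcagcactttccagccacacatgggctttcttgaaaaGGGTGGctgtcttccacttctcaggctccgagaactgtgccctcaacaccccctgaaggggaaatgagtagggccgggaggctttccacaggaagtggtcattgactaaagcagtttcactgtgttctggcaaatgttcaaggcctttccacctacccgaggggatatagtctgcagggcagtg
Gimap3, chr6:48770802-48771101, minus strand: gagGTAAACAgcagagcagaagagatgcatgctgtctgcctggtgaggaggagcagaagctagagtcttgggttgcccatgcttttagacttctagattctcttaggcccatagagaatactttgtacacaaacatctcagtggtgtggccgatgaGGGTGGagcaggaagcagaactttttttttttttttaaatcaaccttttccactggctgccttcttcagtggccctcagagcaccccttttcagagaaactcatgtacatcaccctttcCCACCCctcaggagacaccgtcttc
The Gimap7 window held a RUNX match on the opposite strand, starting at position -79 from the start of transcription, and a TCF/LEF match at 43. Gimap5 held 1 KLF match, at -134, and Gimap3 held KLF matches at -94 and 26 and a FOXO match at -247. No motif overlapped another in these windows. Over the 9 windows of the 8 genes, 5 held the KLF motif, 3 the RUNX motif, 2 the TCF/LEF motif, 1 the FOXO motif and 0 the ETS motif CCGGAA. Of all 32851 promoter windows of the same length, 31.5% held the KLF, 16.8% the RUNX, 16% the TCF/LEF, 3.6% the FOXO and 14.9% the ETS motif. These are matches of letters and not sites of binding.

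**Figure D1:**
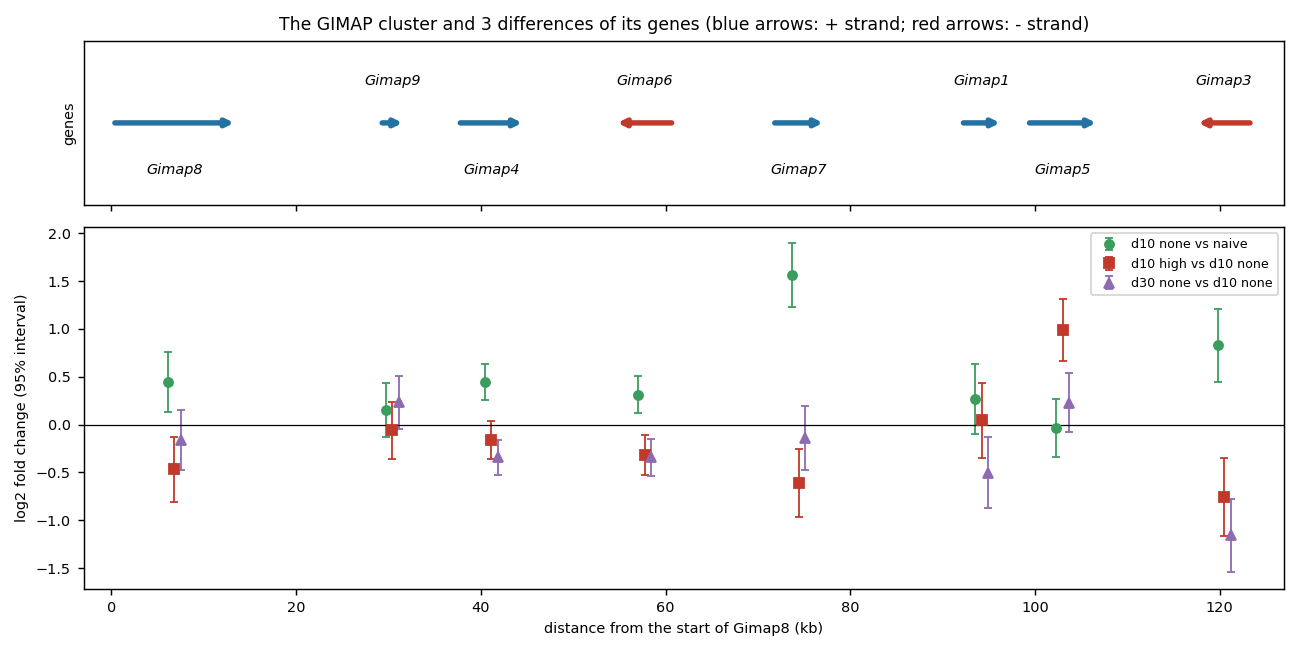
The upper panel maps the 8 GIMAP genes by distance from the start of Gimap8 in kb, with arrows in the direction of transcription. The lower panel gives, at each gene, the log2 fold change with its 95% interval of day 10 none against naive, day 10 high against day 10 none, and day 30 none against day 10 none; the neighbours Gimap5 and Gimap3 lie on opposite sides of 0 for high antigen (0.99 and -0.75).

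Gimap7 was the member with the largest difference from naive cells in none and int cells. In high cells Gimap5 differed by as much (0.95 ± 0.16, adjusted p = 3.86e-05), at 9.17 to 9.47 in high and 8.01 to 8.86 in naive cells, without overlap. In humans the Gimap7 protein is known to speed GTP hydrolysis by a partner of the family. The log2 signal of Gimap7 was 8.48, 8.04, 8.43, 8.52 and 8.49 in day 30 none cells and 8.38, 8.55, 8.38, 8.67 and 8.68 in day 10 none cells, against 6.83, 6.24, 7.35, 7.73 and 6.72 in naive cells. Day 10 int cells had 8.67, 8.65, 8.45 and 8.44 and day 10 high cells 8.22, 7.66, 7.97 and 7.84. Every none and int array lay above every naive array, and 3 of 4 high arrays did. The differences from naive were 1.42 ± 0.17 in day 30 none (adjusted p = 5.71e-08), 1.56 ± 0.17 in day 10 none (adjusted p = 4.24e-09), 1.58 ± 0.18 in day 10 int (adjusted p = 1.32e-08) and 0.95 ± 0.18 in day 10 high (adjusted p = 0.000196), or 2.67-, 2.94-, 2.99- and 1.93-fold. These comparisons share the naive arrays. The naive arrays with the most Cd79a and Lyz2, replicates 3 and 4, were the 2 with the most Gimap7. Without naive replicates 3 and 4, none replicate 4 and high replicate 2 the differences were larger, at 1.80, 1.90, 1.96 and 1.23 (adjusted p = 1.47e-11, 1.1e-11, 3.22e-12 and 1.07e-06). The call in high cells ended in a fit of these 2 groups alone (adjusted p = 0.0981).

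Gimap3 and Gimap4 were higher in day 10 none cells than in naive cells as well. Gimap3, a protein of mitochondrial and endoplasmic reticulum membranes that in mice acts on mitochondrial DNA inheritance, had 9.94, 9.49, 10.00, 9.32 and 9.85, against 8.29, 9.42, 8.87, 8.96 and 8.92 in naive cells (0.83 ± 0.19, adjusted p = 0.00564). The groups overlapped through naive replicate 2 alone. Gimap4, which in mice promotes the death of T cells once apoptosis has begun, had 10.51, 10.68, 10.58, 10.43 and 10.83, against 10.13, 10.26, 10.06, 10.27 and 10.07 in naive cells (0.45 ± 0.09, adjusted p = 0.00167). All of its none arrays lay above all naive arrays, though the difference is only 1.36-fold. In all, 3 of 8 members were called higher and 0 lower, where 3.3% of all genes were called. The median of the members was 0.38, against -0.01 for all genes. By day 30 Gimap7 alone was called in none cells (4.33% of all genes called), and Gimap3 and Gimap4 lay at -0.33 and 0.10 relative to naive. Leaving out naive replicate 4 added Gimap9 (0.51, adjusted p = 0.0233). On day 10, Gimap6 (0.31 ± 0.10, adjusted p = 0.0685) and Gimap8 (0.44 ± 0.16, adjusted p = 0.136) were not called in none cells. Leaving out none replicate 4 brought in both (adjusted p = 0.0464 and 0.0204), leaving out naive replicate 2 brought in Gimap8 (0.0246), and leaving out naive replicate 1 brought in Gimap6 (0.05 after rounding).

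In int cells on day 10, 4 members were higher than in naive cells and 0 lower, against 3.15% of all genes called. Besides Gimap7 these were Gimap4 (0.46 ± 0.10, adjusted p = 0.0023), Gimap6 (0.53 ± 0.10, adjusted p = 0.000803) and Gimap5 (0.58 ± 0.16, adjusted p = 0.0282). Gimap6, which binds a GABARAP protein of the autophagosome, had 9.78, 9.61, 9.64 and 9.60 in int cells, against 9.29, 8.92, 9.10, 9.30 and 9.03 in naive cells, without overlap. The Gimap5 call ended on leaving out any of int replicates 2 to 4 or naive replicates 1 to 3 (adjusted p 0.0633 to 0.114), with quantile normalization (0.0963) and in a fit of these groups alone (0.127). High cells had 2 members above naive and 0 below (4.82% of all genes called), Gimap7 and Gimap5. Gimap8, a member with more than one GTPase domain, was not called, at 0.53 ± 0.17 in int (adjusted p = 0.0702) and -0.03 ± 0.17 in high cells (adjusted p = 0.976); leaving out naive replicate 2 brought it in for int (adjusted p = 0.0129), as did leaving out int replicate 2 (0.0482). Leaving out high replicate 2 added Gimap4 in high cells (0.41, adjusted p = 0.00399).

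Markers of other cells also differed between primed and naive cells, and their part in the GIMAP differences was not tested. Of 9 measured B cell markers 0 were higher and 2 lower in day 30 none, day 10 none and day 10 high cells, and 1 was higher and 2 lower in day 10 int cells. The lower pair was Cd79a and Cd79b, parts of the B cell receptor, at -2.12 ± 0.36 (adjusted p = 7.92e-05) and -2.05 ± 0.48 (adjusted p = 0.00649) in day 10 none cells, and Cd22 was higher in int cells (1.81 ± 0.36, adjusted p = 0.00106). The summed log2 level of the list was 6.46 to 6.74 in day 30 none, 6.45 to 7.21 in day 10 none, 6.65 to 7.75 in day 10 int and 6.35 to 6.69 in day 10 high cells, against 6.52 to 9.53 in naive cells. Of 12 myeloid and dendritic markers 0 were higher in any of these groups, and 5 were lower in day 30 none, 2 in day 10 none, 4 in day 10 int and 3 in day 10 high cells. The MHC class II genes H2-Ab1 and H2-Aa were lower in each, at -2.01 ± 0.28 (adjusted p = 1.62e-06) and -0.89 ± 0.20 (adjusted p = 0.00466) in day 10 none cells. S100a9, of granulocytes, was lower in day 30 none (-3.97 ± 0.67, adjusted p = 0.000101), int and high cells. The sums were 6.72 to 7.28 in day 30 none, 7.0 to 9.38 in day 10 none, 7.02 to 7.84 in day 10 int and 7.23 to 7.86 in day 10 high cells, against 7.41 to 11.75 in naive cells. Of 7 sort markers 2 were lower in day 10 none cells, Cd2 (-0.50 ± 0.09, adjusted p = 0.000194) and Cd5 (-0.50 ± 0.12, adjusted p = 0.0133), and 1 higher, Thy1 (0.47 ± 0.11, adjusted p = 0.00611). In day 10 high cells Thy1 was lower than in naive cells (-0.60 ± 0.12, adjusted p = 0.000279) and 2 others, Cd4 and Cd3e, higher. On the same B cell list, Pax5 had group means near the array medians, at 3.26 to 3.58, and Ebf1 below them, at 2.64 to 2.89. Group means hide single arrays. In naive replicate 3 Pax5 was 3.98 and Ms4a1, also on the list, was 5.19, against 2.46 to 3.25 for Ms4a1 in the other naive arrays. Of the 6 endothelial markers, Cdh5, Kdr, Tie1, Tek and Emcn had group means below the array medians, at 2.50 to 3.17. Pecam1, which T cells also express, was the exception, and was lower in day 10 none than in naive cells (-0.60 ± 0.17, adjusted p = 0.0301).

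**Figure D2:**
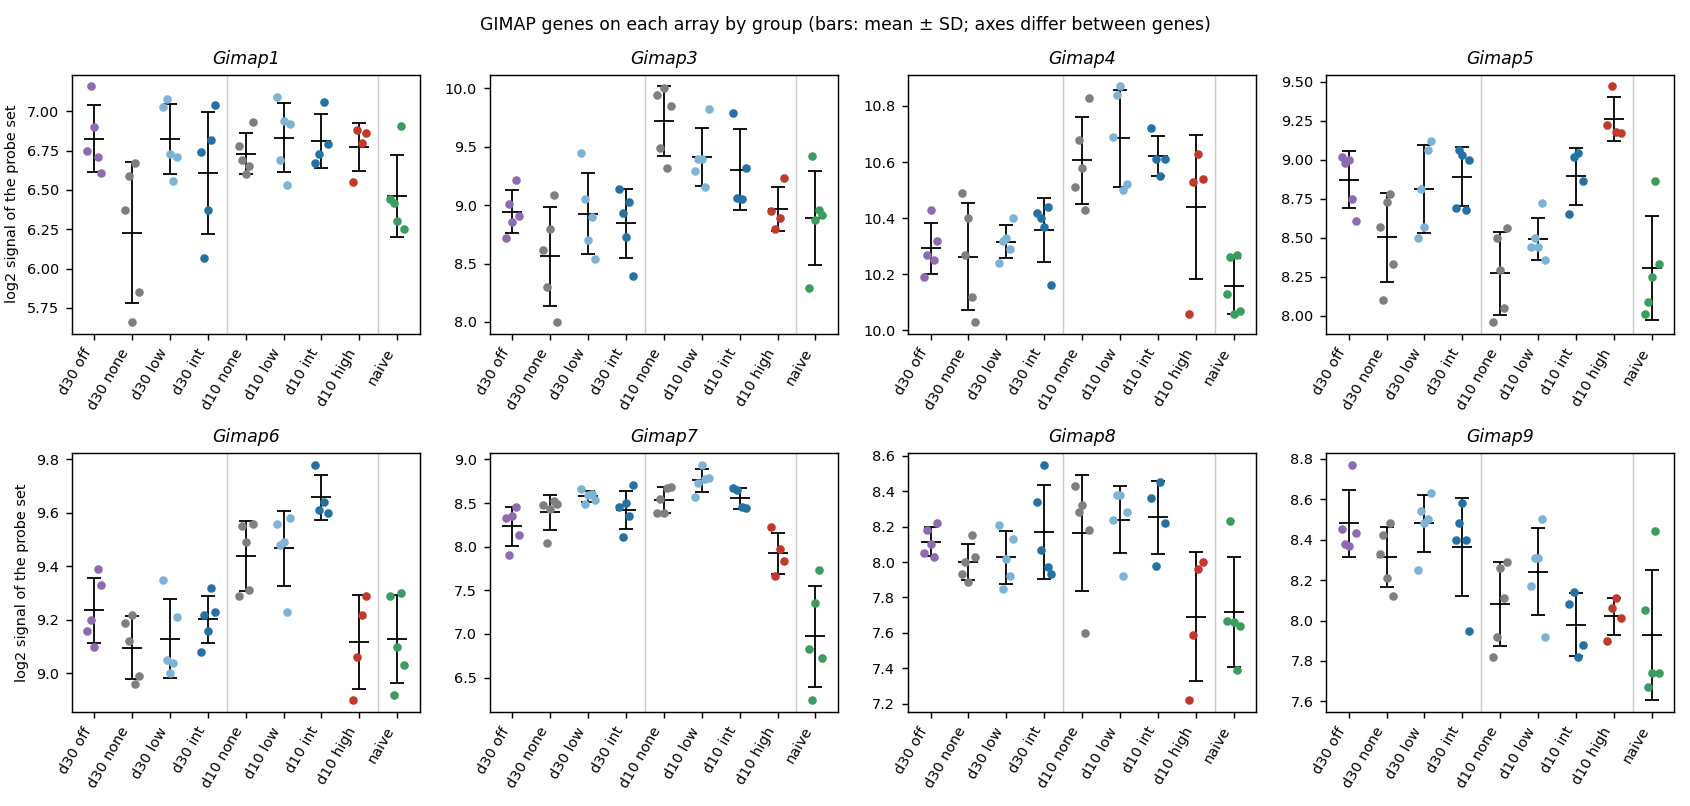
Log2 signal of each GIMAP gene on all 43 arrays by group, with points for arrays and bars for mean ± SD; the axes differ between genes. Gimap7 is lowest in the naive arrays (6.24 to 7.73), Gimap5 is highest in the day 10 high arrays (9.17 to 9.47), and Gimap3 is highest in the day 10 none arrays (9.32 to 10.00).

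Cells with continued antigen were compared with none cells of their own day, the question being how persisting antigen alters them. Low and int cells share the recipient strain and the doxycycline until day 3 with none cells. High cells differ from none, low and int cells in recipient strain and doxycycline as well as in antigen, and possibly in the anti-CD40 antibody. These differences cannot be told apart. The none arrays of a day are shared by these comparisons. Gimap5 was the member that rose with antigen on day 10. Its protein lies on lysosomes and is needed for lymphocyte survival in rats and mice. Its signal was 7.96, 8.50, 8.29, 8.05 and 8.56 without antigen, 8.44, 8.50, 8.44, 8.72 and 8.36 with low, 8.65, 9.02, 9.04 and 8.86 with int, and 9.22, 9.47, 9.18 and 9.17 with high antigen. Each int and each high array lay above all none arrays, and each high array lay above all int arrays. Gimap5 averaged 9.26 ± 0.14 in high cells (SD, n = 4) and 8.27 ± 0.27 in none cells (SD, n = 5), a difference of 0.99 ± 0.16 or 1.98-fold (limma adjusted p = 2.48e-05). That call survived the removal of any single array of these 2 groups (adjusted p 2.12e-05 to 0.000447). In int cells the difference was 0.62 ± 0.16 (adjusted p = 0.0339). It lost the call on leaving out int replicate 2, 3 or 4 or none replicate 1, 3 or 4 (adjusted p between 0.0655 and 0.154), with quantile normalization (0.0635), in a fit of these groups alone (0.0729) and without naive replicates 3 and 4, day 10 none replicate 4 and day 10 high replicate 2 (0.0659). In low cells it was 0.22 ± 0.15 (95% interval -0.08 to 0.52), which was not called. The step from int to high was 0.37 ± 0.17 (adjusted p = 0.322) and that from low to int 0.40 ± 0.16 (adjusted p = 0.571).

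Gimap3 and Gimap7 fell in high cells. Gimap3 had 8.95, 8.80, 8.89 and 9.23 in high cells, all below the none arrays at 9.32 to 10.00 (-0.75 ± 0.20, adjusted p = 0.0162). Its means ran 9.72, 9.41, 9.30 and 8.97 over none, low, int and high, but neither low (-0.31 ± 0.19) nor int (-0.42 ± 0.20) was called. The high call ended on leaving out high replicate 3 or 4 or none replicate 1 or 3 (adjusted p 0.0508 to 0.0711). Gimap7 was 7.66 to 8.22 in high cells and 8.38 to 8.68 in none cells (-0.61 ± 0.18, adjusted p = 0.029), again without overlap. That call ended on leaving out high replicate 3, 4 or 5 or none replicate 2, 4 or 5 (adjusted p between 0.0549 and 0.146) and in a fit of these groups alone (0.0693). Low and int antigen left Gimap7 at 8.76 ± 0.13 and 8.55 ± 0.12, against 8.53 ± 0.15 without antigen. In high cells 1 member rose and 2 fell, where 5.25% of all genes were called. The median of the members was -0.24, against 0.01 for all genes. Of 7 sort markers 2 were higher, Cd3g (0.34 ± 0.07, adjusted p = 0.00125) and Cd2 (0.35 ± 0.10, adjusted p = 0.0199), and 1 lower, Thy1 (-1.07 ± 0.12, adjusted p = 4.19e-09). Of 4 markers of NK, CD8 and gamma-delta T cells 1 was higher, Klrb1c, at 5.86 in high and 4.26 in none cells (adjusted p = 0.000141), and 0 of the B cell or myeloid markers were called by limma. Their part in the GIMAP differences was not tested. Gimap6 (-0.32 ± 0.10, adjusted p = 0.0569) and Gimap8 (-0.47 ± 0.17, adjusted p = 0.1) were not called. Each of them crossed the threshold on leaving out high replicate 5 (adjusted p = 0.0279 and 0.0447) or none replicate 4 (0.0399 and 0.0155), and Gimap6 also on leaving out none replicate 1 (0.048). With quantile normalization both were called, which made 5 of 8.

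Gimap3 and Gimap5 are near relatives that lie next to each other, and RefSeq lists Gimap5 as an older name of Gimap3. Whether their probe sets share transcripts was not tested, since probe sequences were not used here. Their values differed in opposite directions between day 10 high and none cells. Their correlation was -0.30 over the 9 group means and -0.11 over the deviations of the 43 arrays from their group means.

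Int antigen gave 1 call among the 8 members on day 10, Gimap5, and 1.24% of all genes were called. Low antigen gave 0 calls by limma, where 0.00451% of all genes were called. At an unadjusted p under 0.05 there were 0 members, beside 760 of the 22180 genes. Over the 8 members the low differences ran from -0.31 (Gimap3) to 0.23 (Gimap7). Their separate 95% intervals reached from -0.69 (Gimap3) to 0.56 (Gimap7), which is not a joint bound on the members. Between int and low cells 0 members were called by limma (0.541% of all genes), and 1 had an unadjusted p under 0.05, as did 1292 of the 22180 genes. High cells differed from int cells in Gimap6 and Gimap7, both lower, where 2.99% of all genes were called. Gimap6 had 8.90, 9.06, 9.22 and 9.29 in high cells, against 9.78, 9.61, 9.64 and 9.60 in int cells (-0.54 ± 0.11, adjusted p = 0.00129). It survived the removal of any single array of these groups but not a fit of these groups alone (adjusted p = 0.0777). Gimap7 (-0.63 ± 0.19, adjusted p = 0.0499) lost its call with quantile normalization (0.083), in a fit of these groups alone (0.115) and on leaving out high replicate 3, 4 or 5 or any int array (adjusted p 0.0696 to 0.201). Gimap8 (-0.56 ± 0.18, adjusted p = 0.0742) was called without high replicate 5 (0.0314). Thy1 was lower in high than in int cells too (-0.94 ± 0.12, adjusted p = 5.86e-07), as was Ptprc (-0.33 ± 0.09, adjusted p = 0.0365), the other 5 sort markers not being called.

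**Figure D3:**
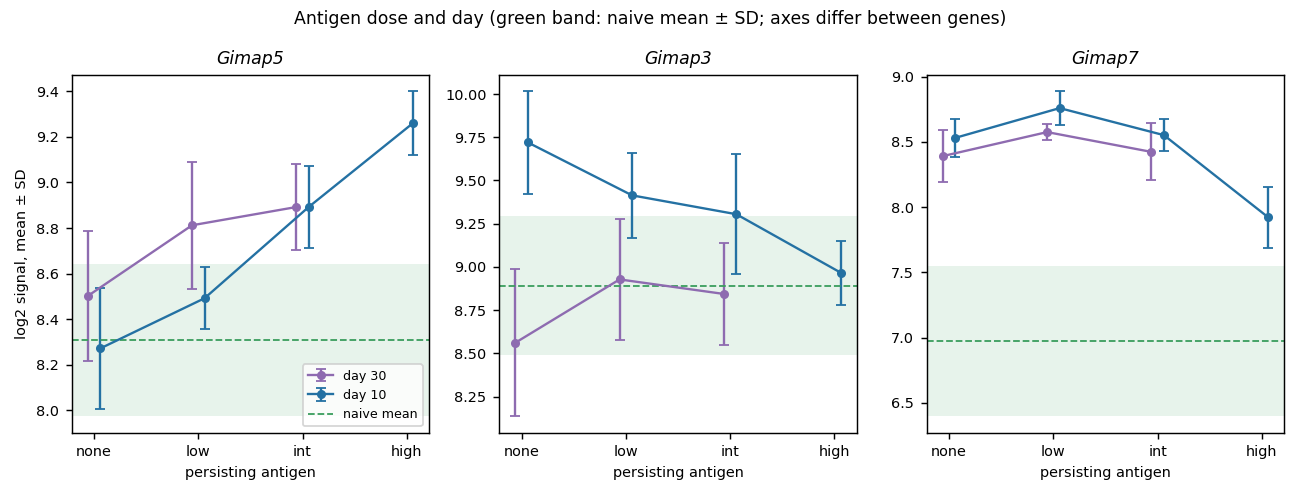
Mean ± SD of the log2 signal of Gimap5, Gimap3 and Gimap7 by antigen dose, on day 30 (purple) and day 10 (blue), with the naive mean ± SD as a green band; the axes differ between genes. On day 10 Gimap5 averages 9.26 with high antigen and 8.27 without, Gimap3 8.97 and 9.72, and Gimap7 7.92 and 8.53.

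On day 30, antigen gave 0 calls among the 8 genes by limma in any of 5 comparisons. These were low against none (0.654% of all genes called), int against none (2.21%), off against none (0.266%), int against low (0.546%) and off against int (0.464%). At an unadjusted limma p under 0.05 there were 2, 2, 2, 0 and 0 members, in that order. Of all 22180 genes, 2443, 2879, 2470, 1994 and 1682 reached that unadjusted threshold. The genes at an unadjusted p under 0.05 in the first 3 were Gimap1 and Gimap5 each time. Gimap5 averaged 8.81 ± 0.28 in low, 8.89 ± 0.19 in int and 8.87 ± 0.18 in off cells, against 8.50 ± 0.29 in none cells (SD, n = 5 each), with adjusted p of 0.443, 0.211 and 0.331. Gimap1, without which mice fail to keep mature T and B cells, averaged 6.82 ± 0.22, 6.61 ± 0.39 and 6.83 ± 0.21, against 6.23 ± 0.45 in none cells, with adjusted p of 0.132, 0.371 and 0.164. None replicates 3 and 5 were low, at 5.66 and 5.85, while the other none arrays had 6.37 to 6.67. A second, dim probe set of Gimap1 did not show these differences. Its day 30 means were 3.79 in low, 4.01 in int and 3.86 in off cells, against 4.02 in none cells. It varied within groups by SDs of 0.60 to 1.40 around group means of 3.36 to 5.13, and was used only in the alternative with averaged probe sets. The test of int effects between the days gave 0 calls by limma (0.0902% of all genes called), and that of low effects 0 as well (0.0316%). In each, 1 member had an unadjusted p under 0.05, beside 1486 and 1209 of the 22180 genes. In both this member was Gimap3, at 0.70 ± 0.28 (adjusted p = 0.642) and 0.67 ± 0.27 (adjusted p = 0.809). The off and int groups differed by -0.19 (Gimap7) to 0.22 (Gimap1), with 95% intervals within -0.53 to 0.59.

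Between day 10 and day 30 without antigen, Gimap3 fell most. Day 30 none cells had 8.62, 8.30, 8.80, 9.09 and 8.00, all below the day 10 none cells at 9.94, 9.49, 10.00, 9.32 and 9.85. The difference was -1.16 ± 0.19, or 2.23-fold (adjusted p = 0.000342), and it survived the removal of any single array of these groups (adjusted p 0.000158 to 0.00287). Gimap4 (-0.34 ± 0.09, adjusted p = 0.0286) and Gimap6 (-0.34 ± 0.10, adjusted p = 0.0374) fell less. In all, 3 members were lower and 0 higher, where 3.43% of all genes were called. Of 7 measured sort markers 0 were higher and 2 lower in the same comparison, Cd3e (-0.49 ± 0.12, adjusted p = 0.0141) and Thy1 (-0.40 ± 0.11, adjusted p = 0.0292). Of 12 myeloid and dendritic markers 0 were higher and 2 lower, S100a8 (-3.12 ± 0.79, adjusted p = 0.0191) and S100a9 (-2.86 ± 0.67, adjusted p = 0.0117), with summed log2 levels of 6.72 to 7.28 in day 30 none and 7.0 to 9.38 in day 10 none cells. Of 9 B cell markers 0 were called by limma. The part of these markers in the GIMAP differences was not tested. The Gimap4 call ended on leaving out day 10 none replicate 2, 3 or 5 or day 30 none replicate 4 or 5 (adjusted p 0.0529 to 0.104), without the variance trend (0.0526) and in a fit of these groups alone (0.111). The Gimap6 call ended on leaving out day 10 none replicate 2, 3 or 5 or day 30 none replicate 2, 4 or 5 (adjusted p 0.0551 to 0.0989), with quantile normalization (0.0526) and in a fit of these groups alone (0.142).

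Under low antigen 2 members were lower on day 30 than on day 10 and 0 higher (2.87% of all genes called), Gimap4 (-0.37 ± 0.09, adjusted p = 0.0203) and Gimap6 (-0.34 ± 0.10, adjusted p = 0.0448). Gimap4 had 10.24 to 10.40 on day 30 and 10.50 to 10.87 on day 10. It lost its call on leaving out day 10 low replicate 2 or 3 (adjusted p 0.0802 and 0.0878), and Gimap6 on leaving out any array of these groups but day 10 low replicate 4 and day 30 low replicate 1 (0.0545 to 0.113), with quantile normalization (0.143) and in a fit of these groups alone (0.106). Under int antigen Gimap6 alone was called, at 9.08 to 9.32 on day 30 and 9.60 to 9.78 on day 10 (-0.46 ± 0.10, adjusted p = 0.0194; 0.712% of all genes called). The call ended without replicate 1 or 3 of either group (adjusted p 0.051 to 0.108). In off cells Gimap6 had 9.10 to 9.39, again below the day 10 int cells from whose schedule they started (-0.42 ± 0.10, adjusted p = 0.018; 1.94% of all genes called), with the call lost on leaving out day 10 int replicate 1 or off replicate 3 (0.0856 and 0.0591). Gimap9 lay higher in each off array than in any day 10 int array, at 8.37 to 8.77 and 7.82 to 8.14, but was not called (0.50 ± 0.15, adjusted p = 0.0647). Gimap4 was lower in each off array than in any day 10 int array and was not called either (-0.33 ± 0.10, adjusted p = 0.0684). Both passed the threshold with quantile normalization (adjusted p = 0.0127 for Gimap9 and 0.0264 for Gimap4), array weights (0.0277 and 0.0238), the filter on dim genes (0.0347 and 0.0447) and without the same 4 arrays as above (0.0376 and 0.0236).

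**Figure D4:**
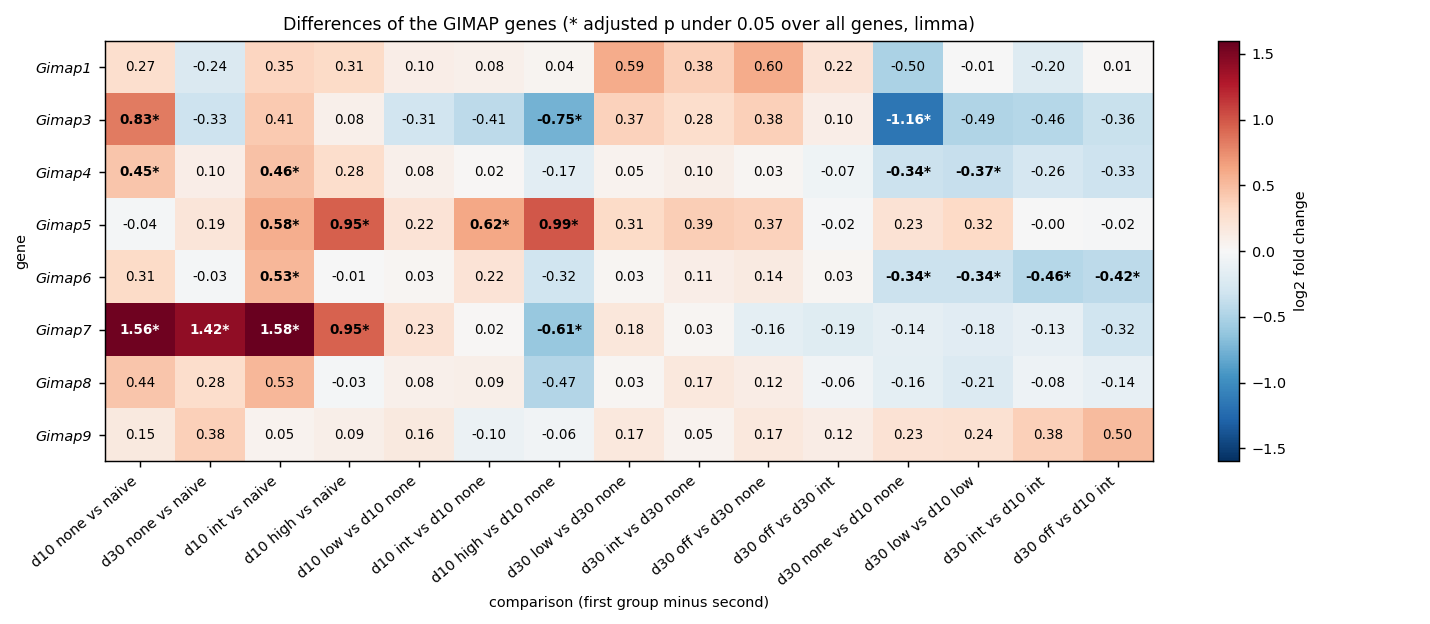
Log2 fold changes of the 8 GIMAP genes (rows) in 15 comparisons (columns, first group minus second), with red for higher and blue for lower and an asterisk for an adjusted p under 0.05 over all genes. Gimap7 is higher than in naive cells in the first comparisons (0.95 to 1.58), Gimap5 in high cells against naive and none (0.95 and 0.99) and Gimap3 over time without antigen (-1.16).

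Across the 9 groups the span of the group means was widest for Gimap7 (1.79, or 3.45-fold), followed by Gimap3 (1.16), Gimap5 (0.99), Gimap1 (0.61), Gimap6 (0.56), Gimap8 (0.56), Gimap9 (0.55) and Gimap4 (0.53). The median span was 0.58 for the members and 0.44 for all genes. Ordered by mean, Gimap7 ran from 8.76 in day 10 low down to 8.23 in day 30 off cells, then 7.92 in day 10 high and 6.97 in naive cells. Of its 8 steps between neighbours in that order, 3 exceeded the larger SD of the 2 groups: those below day 10 low, above day 10 high and above naive. Gimap5 exceeded it at 2 steps, below day 10 high and between day 30 low and day 30 none. Gimap6 did so at 2 steps, below day 10 int and between day 10 none and day 30 off. Gimap3 did so at 1 step, between day 10 none and day 10 low. Gimap1, Gimap4, Gimap8 and Gimap9 had no step beyond the larger SD.

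The members did not share 1 pattern. Over the 9 group means, the correlations of the 28 pairs ran from -0.36 (Gimap3 with Gimap9) to 0.85 (Gimap4 with Gimap6), with a median of 0.40 and 6 pairs below 0. Gimap3, Gimap4 and Gimap6 ran together (0.79 to 0.85), as did Gimap7 with Gimap8 (0.82). Gimap5 had no correlation above 0.41 with another member. Within groups, the deviations of the 43 arrays correlated by -0.44 (Gimap7 with Gimap8) to 0.45 (Gimap4 with Gimap6), with a median of 0.14. Members share arrays, so these correlations are descriptions.

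The mean of the 8 members was 8.62 in day 30 off, 8.42 in day 30 none, 8.64 in day 30 low, 8.61 in day 30 int, 8.69 in day 10 none, 8.77 in day 10 low, 8.76 in day 10 int, 8.52 in day 10 high and 8.20 in naive cells. Of 2174 other genes whose group means spanned at least 1, the 8 most like this profile by Pearson correlation over the 9 group means were Samd4b (0.967), Arhgap26 (0.961), Parp4 (0.949), Ttc39b (0.948), Man2a1 (0.943), Bicral (0.935), Stat4 (0.930) and Atxn1 (0.929). All 8 had their lowest mean in naive cells, as did the profile they were chosen by, so this order follows largely from the choice. Gimap7 weighs heavily in that profile. In day 30 none against naive cells Gimap7 differed by 1.42, and the other members by -0.33 (Gimap3) to 0.38 (Gimap9). Stat4, which carries the IL-12 signal of Th1 cells, had group means of 9.50 to 10.04 in primed cells and 8.55 in naive cells. The 4 least like the profile were Btbd35f1 (-0.943), Alox5ap (-0.901), Gm6213 (-0.896) and Ndrg1 (-0.894), with mean levels of 2.85 to 3.52. Their highest mean was in naive cells, which also follows largely from the choice.

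Genes that work beside the family were counted from lists given by name. Of 15 measured BCL2-family genes, which set the threshold of cell death, 0 were higher and 1 lower in day 10 none than in naive cells, Bcl2 itself (-0.74 ± 0.20, adjusted p = 0.0267), which is near the 3.3% of all genes called. The list median was -0.10, against -0.01 for all genes. In high against none cells 1 was higher and 0 lower, Bcl2a1a (1.24 ± 0.22, adjusted p = 9.98e-05), and in int against none cells 0 by limma (5.25% and 1.24% of all genes). The medians were -0.01 and 0.04, against 0.01 and -0.01 for all genes. Of 15 autophagy genes around the partner of Gimap6, 2 were higher and 0 lower in high against none cells, Gabarapl1 (1.27 ± 0.21, adjusted p = 4.27e-05) and Map1lc3a (0.45 ± 0.13, adjusted p = 0.0391), with a list median of 0.23, against 0.01 for all genes. Both were dim, at 4.12 and 3.60 in high and 2.85 and 3.15 in none cells. Of 7 genes of the GSK3 and beta-catenin pathway, on which Gimap5 acts in mice, 2 were lower and 0 higher in the same cells, Gsk3b (-0.84 ± 0.17, adjusted p = 0.000751) and Axin2 (-0.87 ± 0.21, adjusted p = 0.00499), with a list median of -0.29.

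Resting-state and receptor-signal genes were counted in the same way. Of 18 resting-state genes 0 were higher and 6 lower in high than in none cells, with a list median of -0.43, against 0.01 for all genes (5.25% of all genes called). Satb1, an organiser of chromatin in T cells (-1.61 ± 0.26, adjusted p = 1.95e-05), and Il7r, the receptor chain for IL-7 (-2.34 ± 0.44, adjusted p = 0.000288), were among them. In int cells 0 were higher and 3 lower (1.24% of all genes called), with a median of 0.01 against -0.01 for all genes, Il7r by -4.00 ± 0.44 (adjusted p = 6.73e-08), S1pr1 by -1.04 ± 0.23 (0.00684) and Klf2 by -0.83 ± 0.21 (0.0297). In day 10 none against naive cells 3 of these 18 were higher and 2 lower (3.3% of all genes called), with a median of 0.19 against -0.01 for all genes. Higher were Il7r (2.73 ± 0.42, adjusted p = 1.33e-05), Klf2 (1.26 ± 0.20, 2.41e-05) and Slfn2 (0.36 ± 0.09, 0.0141). Lower were Ccr7 (-0.90 ± 0.26, 0.046) and Bcl2 (-0.74 ± 0.20, 0.0267). Of 14 receptor-signal genes 11 were higher and 0 lower in high than in none cells (median 1.55), and 10 higher and 1 lower in int than in none cells (median 1.43). In day 10 none against naive cells 0 of these 14 were higher and 6 lower (median -0.80), Nr4a1 by -2.90 ± 0.28 (adjusted p = 3.21e-10). Of 14 interferon-inducible GTPases, another GTPase group of immune cells, 2 were higher and 0 lower in day 10 none than in naive cells, where 3.3% of all genes were called, with a list median of 0.50. In high against int cells, where 2.99% were called, 0 were higher and 4 lower (median -0.54, against 0.03 for all genes), Iigp1 by -1.59 ± 0.25 (adjusted p = 3.57e-05).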

How the data were processed

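The authors deposited log2 signals of 41345 probe sets for 43 arrays, 1 biotin-labelled sample each; that they are log2 was inferred from their range (1.46 to 13.87). Per the labels' protocols, amplification used Ovation Pico WTA V2 reagents. How background, probe summaries and normalization were handled is not given in the sources used here. The number of arrays limits the precision, and amplification can compress low signals.

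Probe sets with 1 gene symbol were used (23521; 1814 carried several and 16010 none), the brightest per gene, which left 22180 genes, 21994 of them matched to RefSeq by gene ID. Gimap1 had a second, dim probe set. All arrays entered 1 limma 3.58.1 fit in R 4.3.3, with a mean per group and eBayes with a variance trend, and 18 differences and 2 interactions were tested, with Benjamini-Hochberg adjustment over all genes. On simulated data for int against none on day 10, changes of log2 0.5, 1, 1.5 and 2 were recovered in 26%, 88%, 98% and 100% of 50 genes each. Alternatives were quantile normalization, median centring, no trend, fewer groups, array weights, a filter on dim genes, averaged probe sets, a replicate block, 4 arrays left out, and each array of the groups compared left out in turn.

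The rule for named genes took all members, the 8 genes most and 4 least like their mean profile, 5 measured neighbours on each side, and up to 4 called genes of a list. Members and lists were chosen with earlier results of these data known.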

Additional observations from a re-analysis of the deposited data

Results flagged for a closer look

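In 7 of the 72 combinations of a gene and a group, 1 array lay apart from the others by Dixon's gap test at its 95% level, which chance alone flags in about 1 of 20. Gimap1 was at 6.91 in naive replicate 4, against 6.25 to 6.44 in the other naive arrays; this array also carried transcripts of other cells. Gimap4 was at 10.16 in day 30 int replicate 5, against 10.37 to 10.44 in the others, and Gimap9 on the same array was at 7.95, against 8.40 to 8.58. Gimap5 was at 9.47 in day 10 high replicate 3, against 9.17 to 9.22. Gimap6 was at 9.23 in day 10 low replicate 4, against 9.48 to 9.58. Gimap7 was at 8.04 in day 30 none replicate 2, against 8.43 to 8.52. Gimap9 was at 8.77 in day 30 off replicate 4, against 8.37 to 8.45.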

How the results depend on the processing

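Of 160 tests of a GIMAP gene, 23 were called. Of these calls, 12 survived the removal of any single array of the groups compared, while 11 did not. No called value changed sign under any of the alternatives run. Counts of called members moved by more than 1.5 times in these cases, given with the count in the reported fit in parentheses and, after a slash, the same for all genes. With quantile normalization they were 0 (1) / 295 (276) for int against none on day 10, 5 (3) / 1225 (1165) for high against none, 1 (2) / 647 (664) for high against int, 1 (2) / 385 (636) for low on day 30 against day 10 and 3 (1) / 456 (430) for off against day 10 int. With only the groups compared in the fit, they were 1 (2) / 623 (1068) for high against naive, 0 (1) / 358 (276) for int against none on day 10, 0 (2) / 345 (664) for high against int, 1 (3) / 353 (761) for none on day 30 against day 10, 1 (2) / 578 (636) for low over time and 2 (1) / 377 (430) for off against day 10 int. Array weights gave 5 (3) / 1071 (733) for day 10 none against naive and 3 (1) / 770 (430) for off against day 10 int, so more of all genes were called there too. For off against day 10 int, no variance trend gave 2 (1) / 452 (430) and the filter on dim genes, with 12838 genes left, 3 (1) / 591 (430). Without naive replicates 3 and 4, day 10 none replicate 4 and day 10 high replicate 2, there were 0 (1) / 258 (276) for int against none on day 10 and 3 (1) / 562 (430) for off against day 10 int. The replicate block gave 1 (2) / 614 (664) for high against int, 1 (2) / 633 (636) for low over time and 2 (1) / 455 (430) for off against day 10 int. Replicate numbers did not pair the arrays: 5 of 164 same-numbered pairs correlated above 0.1 in their deviations from group means (median 0.001), so the block is not read as evidence of a weaker effect. Leaving out 1 array gave 3 to 5 calls for day 10 none, 1 to 2 for day 30 none, 3 to 4 for int and 2 to 3 for high against naive; 0 to 1 for int and 1 to 4 for high against none on day 10; 1 to 2 for high against int; and 1 to 3, 0 to 2, 0 to 1 and 0 to 1 for none, low, int and off over time. It gave 0 throughout in the other comparisons. Calls over all genes were not counted in these fits, so changes in the members cannot be told from a general gain or loss of calls. Differences of dim or weakly changed genes can be missed at this number of arrays.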
